A study of Mus musculus with 12 samples.

Results

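The 9 genes described here, P2ry12, P2ry13, Gpr34, Cx3cr1, Csf1r, Siglech, Selplg, Tmem119 and Aif1, are markers of homeostatic microglia, taken by symbol from the table of gene expression in the mouse cortex. They are 9 of the 17202 genes in that table, and each is listed once. All 9 had a mean of at least 10 normalized counts (the reads of a gene after division by a scaling factor of that mouse) and so were among the 17111 genes tested. They were taken by name, with no threshold on a measured value.

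Microglia are the resident macrophages of the brain. In the healthy tissue they survey their surroundings with mobile processes, and they depend for survival on the receptor encoded by Csf1r. The surveying, or homeostatic, state is recognized by receptors for nucleotides, chemokines and lipids on the cell surface, and several of these genes are known to be turned down when microglia respond to injury or inflammation. Aif1 encodes IBA1, the protein most often stained to count microglia and the one the study stained.

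RNA was sequenced from the cortex (frontal cortex, per the study's methods) of 12 mice of strain C57Bl6 (a mostly C57BL/6J background, per the methods), 3 in each of 4 groups. The untreated groups are called VEH-WT and VEH-CD, and the treated groups VERCUR-WT and VERCUR-CD. CD mice carry a heterozygous deletion from Gtf2i to Fkbp6 on chromosome 5 and model Williams–Beuren syndrome, while WT mice carry both copies. VERCUR mice drank curcumin (60 mg/kg/day), a phenol of turmeric, together with verapamil (10 mg/kg/day), a calcium channel blocker, from 8 weeks of age for 1 month, and VEH mice, called untreated in the sample labels, drank water with the solvent DMSO. The labels give an age of 16 weeks at collection, whereas the study's methods give a lower verapamil dose and a younger age. The methods state that the mice were male and that the CD line was crossed with Thy1-YFP mice, in which pyramidal neurons carry a fluorescent protein. The question put to these genes was whether their RNA differed between CD and WT mice, and between VERCUR and VEH mice.

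From 40287647 to 56480912 reads per mouse were recovered from the deposited values, with 5 mice between 40287647 and 43373884 and 7 between 51016432 and 56480912. Log2 values of mice of a group correlated across genes at 0.986 to 0.994. For 19 genes of the deleted region, values were divided by the mean of the 6 WT mice, which places WT mice near 1 by construction. The median over these genes lay between 0.962 and 1.03 in the 6 WT mice. It lay between 0.464 and 0.524 in the 6 CD mice, so every library matched its genotype label. The summed level of 5 striatal markers (Drd1, Drd2, Adora2a, Ppp1r1b and Rgs9) differed widely within groups. It was 11340 to 21810 normalized counts in VEH-WT, 10929 to 25086 in VEH-CD, 5395 to 25455 in VERCUR-WT and 5739 to 18977 in VERCUR-CD.

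The labelled tissue held microglial RNA in every mouse. The 9 markers summed to between 12963 and 16867 normalized counts per mouse. The 7 markers of border-associated macrophages (Mrc1, Cd163, Lyve1, F13a1, Pf4, Ms4a7 and Cbr2), the relatives of microglia in the meninges and around vessels, summed to 251 to 456. Of 7 markers of blood leukocytes, 4 were in the table, and their sum was 40.4 to 174 in 11 of the mice and 404 in VERCUR-CD 1. In bulk tissue, fewer microglia and less RNA of a gene per microglial cell cannot be told apart.

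P2ry12 and P2ry13 are neighbours, so their promoters are printed here. In GRCm38 (GENCODE M21), P2ry13 lies on chromosome 3 from 59207892 to 59210882 and P2ry12 from 59216272 to 59262871, both on the minus strand and 5.39 kb apart. Both sit within Med12l, which runs on the opposite strand and shares 9 exon bases with P2ry12. The lines below give the 250 bases before each RefSeq start (GRCm38.p6), 5′ to 3′ along the gene, at chr3:59210883-59211132 for P2ry13 and chr3:59262986-59263235 for P2ry12. Capitals mark AGGAAG, letters found in binding sites of PU.1 and other ETS factors. PU.1, encoded by Spi1, is the transcription factor that microglia and other macrophages require.
P2ry13: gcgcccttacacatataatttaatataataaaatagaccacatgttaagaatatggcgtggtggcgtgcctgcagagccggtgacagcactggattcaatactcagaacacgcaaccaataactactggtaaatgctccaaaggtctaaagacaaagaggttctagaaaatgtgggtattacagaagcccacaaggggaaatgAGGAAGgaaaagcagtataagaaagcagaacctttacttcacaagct
P2ry12: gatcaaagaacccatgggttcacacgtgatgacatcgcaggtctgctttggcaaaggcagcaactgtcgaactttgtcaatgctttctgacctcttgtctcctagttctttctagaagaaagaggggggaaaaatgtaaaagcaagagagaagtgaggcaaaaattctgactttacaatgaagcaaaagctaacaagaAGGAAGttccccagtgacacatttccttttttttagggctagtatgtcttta
The letters begin 47 bases before the start of P2ry13 and 52 bases before that of P2ry12. AGGAAG, or its reverse complement CTTCCT, was searched for on both strands as the only motif. It occurred in 2 of the 5 markers with an entry in the RefSeq promoter table (also Siglech, Cx3cr1 and Aif1) and in 29.5% of all 32851 promoters of the same length. A match describes letters and is not a measured binding site.

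The other markers lie apart from each other, except for Tmem119 and Selplg. Tmem119 (113793729 to 113800516) and Selplg (113818536 to 113832644) are both on the minus strand of chromosome 5, 18.02 kb apart. Selplg is 20.4 Mb from Gtf2i, so the pair is on the chromosome that carries the deletion but outside it. Gpr34 lies on chromosome X from 13632089 to 13640858, plus strand, within Cask on the opposite strand. Csf1r is on chromosome 18 (61100598 to 61132149, plus strand) and shares 873 exon bases with Hmgxb3 on the opposite strand. Aif1 is on chromosome 17 (35170991 to 35176068, minus strand) and Siglech on chromosome 7 (55768178 to 55778925, plus strand). Cx3cr1 is annotated on chromosome 9 from 119901616 to 120069879, minus strand, a span that also holds other genes. The sources used here do not state whether counting used the strand, so reads in the exon bases shared by Csf1r and Hmgxb3 could belong to either gene.

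Per kb of exon, the highest level over the 12 mice was that of Csf1r, at 917 normalized counts per kb, above 85.1% of the genes tested. It was followed by Cx3cr1 (703 per kb), P2ry12 (659.6 per kb), Tmem119 (550.0 per kb) and Selplg (386 per kb). Gpr34 (285 per kb), P2ry13 (243 per kb) and Siglech (218 per kb) stood lower, and Aif1, at 161 per kb, was near the middle of all genes, above 49.9% of them. The level per kb of Aif1 was thus the lowest of the 9. In the order of the 4 group means, VERCUR-CD was highest for 7 of the 9 markers and VEH-WT lowest for 6. Of the 27 pairs of groups that neighbour each other in these orders, 26 had overlapping ranges. The exception was Gpr34, whose lowest VEH-CD mouse was above the highest VERCUR-WT mouse.

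**Figure D1:**
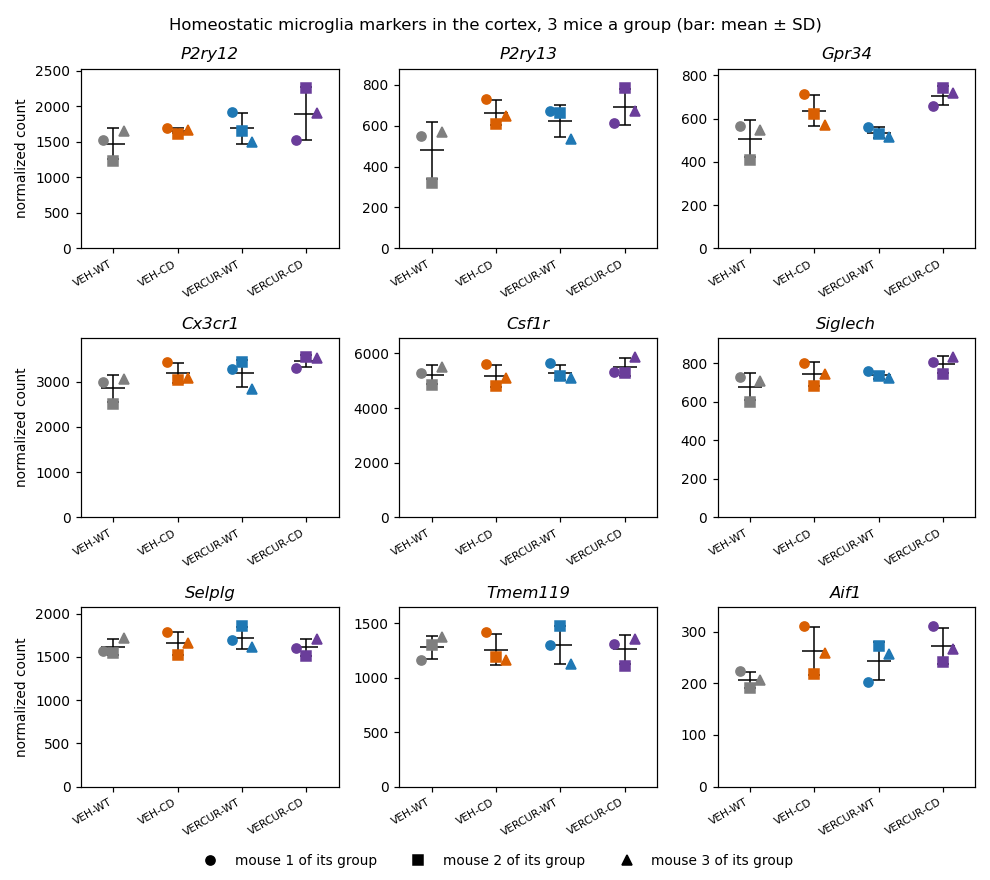
Normalized count (vertical axis, from 0) of each marker in each mouse by group (horizontal axis), with the symbol giving the mouse number within its group and the bar the mean ± SD of 3 mice. In the Gpr34 panel the 6 CD mice lie between 570.2 and 742 and the 6 WT mice between 409.9 and 565, whereas the Tmem119, Csf1r and Selplg panels show overlapping groups.

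Of the nucleotide receptors, P2ry12 senses the ADP that damaged cells release and guides microglial processes toward it. P2ry12 was measured at 1527, 1231 and 1659 normalized counts in the VEH-WT mice (mean 1472 ± 219, SD, n = 3) and at 1692, 1615 and 1664 in the VEH-CD mice (1657 ± 39, SD, n = 3). In VERCUR-WT mice it was 1925, 1652 and 1492 (1689.9 ± 219), and in VERCUR-CD mice 1525, 2262 and 1907 (1898 ± 368). The groups overlapped, with VEH-WT 2 lowest and VERCUR-CD 2 highest of the 12 mice.

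P2ry13, a second ADP receptor, had the widest range of the 9 markers, with the highest mouse 2.45 times the lowest. Its values were 548, 319.8 and 570.2 in VEH-WT (479 ± 139, SD, n = 3), and 732, 610.2 and 649 in VEH-CD (664 ± 62.4). In VERCUR-WT they were 671, 664 and 534 (623 ± 77.1), and in VERCUR-CD 615, 785 and 674 (691 ± 86.3). The 3 VEH-CD mice were above the 3 VEH-WT mice, and VEH-WT 2 stood far below every other mouse. In VERCUR-treated mice the genotypes overlapped.

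Gpr34, a receptor for the lipid lysophosphatidylserine, separated the genotypes. Its normalized counts were 565, 409.9 and 547 in VEH-WT (507 ± 84.7, SD, n = 3) and 712, 623 and 570.2 in VEH-CD (635 ± 71.6). They were 563, 528 and 512 in VERCUR-WT (534 ± 25.8) and 657, 742 and 717 in VERCUR-CD (705 ± 43.7). Every CD mouse was above every WT mouse, although the lowest CD mouse, VEH-CD 3, was close to the highest WT mouse, VEH-WT 1. Among the 5 mice with the lower read totals, Gpr34 was 409.9 to 565 in 3 WT mice and 570.2 to 712 in 2 CD mice. Among the 7 with the higher totals it was 512 to 547 in 3 WT mice and 623 to 742 in 4 CD mice.

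Cx3cr1 encodes the receptor through which microglia respond to fractalkine, a chemokine made by neurons. It was 2984, 2516 and 3052 in VEH-WT (2851 ± 292, SD, n = 3) and 3441, 3029 and 3083 in VEH-CD (3184 ± 224). The VERCUR-WT mice had 3272, 3431 and 2840.1 (3181 ± 306) and the VERCUR-CD mice 3296, 3544 and 3532 (3457 ± 139.7). The groups overlapped in each of these comparisons, and VEH-WT 2 was again the lowest mouse.

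Csf1r, the receptor for the growth factors CSF1 and IL-34, was the steadiest marker, with a coefficient of variation (SD as a percentage of the mean) of 6.02% over the 12 mice. It was 5296, 4859.8 and 5516 in VEH-WT (5224 ± 334, SD, n = 3) and 5604, 4802 and 5086 in VEH-CD (5164 ± 407). In VERCUR-WT it was 5629, 5172 and 5092 (5297 ± 289.5), and in VERCUR-CD 5327, 5289.7 and 5868 (5495 ± 323). All 4 ranges overlapped.

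The surface proteins Siglech, a sialic acid-binding lectin, and Selplg, the ligand of P-selectin known as PSGL-1, also overlapped between the groups compared. Siglech was 727, 598 and 706 in VEH-WT (677 ± 69.3, SD, n = 3), 802, 681 and 745 in VEH-CD (743 ± 60.7), 757, 731 and 723 in VERCUR-WT (737 ± 18.1), and 804, 743 and 831 in VERCUR-CD (793 ± 45.3). Selplg was 1574, 1540.3 and 1716 in VEH-WT (1609.9 ± 93.2), 1782, 1519.7 and 1663 in VEH-CD (1655 ± 132), 1694, 1856 and 1610.2 in VERCUR-WT (1720.0 ± 125), and 1605, 1512 and 1712 in VERCUR-CD (1609.7 ± 100.2). For Siglech the lowest mouse was VEH-WT 2, and for Selplg it was VERCUR-CD 2.

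Tmem119, a transmembrane protein used to tell microglia from other macrophages, was 1162, 1297 and 1375 in VEH-WT (1278 ± 108, SD, n = 3) and 1419, 1189 and 1167 in VEH-CD (1258 ± 139.8). It was 1299, 1474 and 1122 in VERCUR-WT (1298 ± 176) and 1309.6, 1109 and 1359 in VERCUR-CD (1259 ± 132). The 4 group means differed by less than the SD of any group. Aif1, whose product bundles actin and binds calcium, was 223, 192 and 206 in VEH-WT (207 ± 15.7, SD, n = 3) and 311, 218 and 259 in VEH-CD (263 ± 46.5). It was 202, 271 and 257 in VERCUR-WT (243 ± 36.7) and 311, 241 and 267 in VERCUR-CD (273 ± 35.2). VEH-CD 2, at 218, was just below VEH-WT 1, at 223, and the other 2 VEH-CD mice were above all VEH-WT mice.

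**Figure D2:**
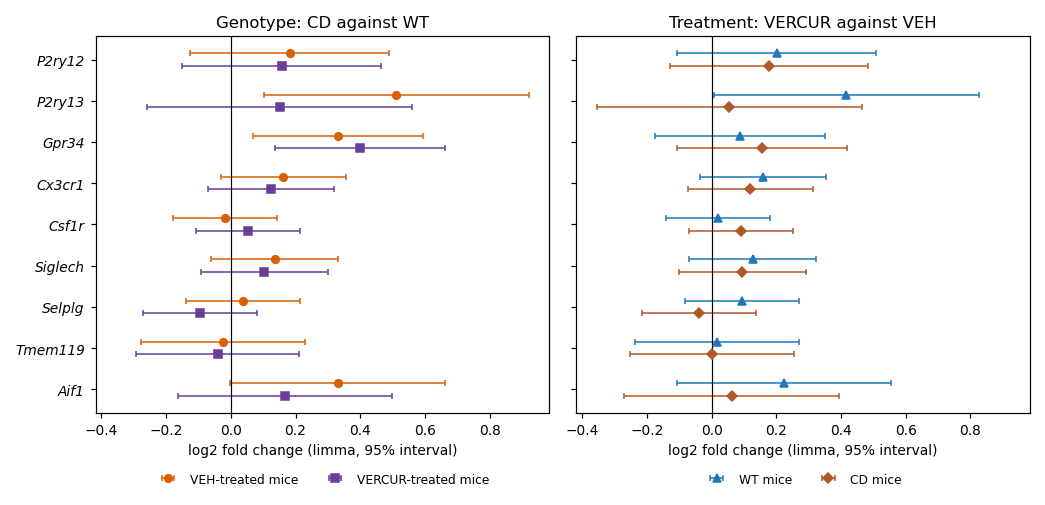
Log2 fold change (horizontal axis) of each marker (vertical axis) for CD against WT mice, left, and for VERCUR-treated against VEH-treated mice, right, with 95% intervals from limma and 0 marked by a line. In the left panel the Gpr34 interval lies above 0 in both VEH-treated (0.33) and VERCUR-treated mice (0.40), and the Tmem119 interval spans 0 in all 4 comparisons.

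The first comparison asked what the deletion alone did. In VEH-treated mice, 7 of the 9 markers were higher in CD than in WT mice and 2, Tmem119 and Csf1r, were lower, with a median log2 fold change of 0.16 on the log2(normalized count + 1) scale. Over all genes tested, 49.3% were higher and the median was -0.003. None of the 9 was called as a differentially expressed gene (DEG), which required a Benjamini-Hochberg adjusted p under 0.05 in limma together with a change of more than 25% in either direction, against 0.257% of all genes. An unadjusted p under 0.05 was found for 2 of the 9, P2ry13 and Gpr34, with limma and also for 2 with limma voom on the recovered reads, against 11.8% of all genes. P2ry13 had the largest difference, 0.51 (95% interval 0.10 to 0.92, adjusted p = 0.320, limma), and Gpr34 had 0.33 (0.07 to 0.60, adjusted p = 0.313, limma). The 3 CD mice lay above the 3 WT mice for these 2 of the 9 markers, as they did for 9.28% of all genes.

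VEH-WT 2 was the lowest of the 12 mice for 6 of the 9 markers. Without it, the difference was 0.24 for P2ry13 and 0.19 for Gpr34, and none of the 9 had an unadjusted p under 0.05. Without VEH-CD 1, the mouse with the highest Aif1, the differences were 0.44 and 0.25 and again none of the 9 had such a p. For the other markers the intervals ran from -0.13 to 0.49 for P2ry12, -0.03 to 0.36 for Cx3cr1, -0.06 to 0.33 for Siglech and -0.001 to 0.66 for Aif1. Differences were smaller for Selplg (-0.14 to 0.21), Csf1r (-0.18 to 0.14) and Tmem119 (-0.28 to 0.23). For none of the 9 did the interval reach a log2 fold change of 1 in either direction.

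The same comparison in VERCUR-treated mice used other animals throughout. There 7 of the 9 markers were higher in CD mice, 2 were lower (Selplg and Tmem119), and the median log2 fold change was 0.12, with 51.6% of all genes higher. None of the 9 was called by limma, against 0.146% of all genes, and 1 of the 9 had an unadjusted p under 0.05 with limma and with limma voom, against 4.1% of all genes. That marker was Gpr34, at 0.40 (95% interval 0.14 to 0.66, adjusted p = 0.849, limma). It was also the only marker of the 9 whose VERCUR-CD and VERCUR-WT mice did not overlap, with the CD mice higher, as for 3.91% of all genes. P2ry13, at 0.15 (-0.26 to 0.56), and Aif1, at 0.17 (-0.16 to 0.50), had wide intervals that included 0. Without VERCUR-CD 1, 2 of the 9 markers had an unadjusted p under 0.05.

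Over both treatments, with 6 CD against 6 WT mice, 7 of the 9 markers were higher in CD mice and 2, Tmem119 and Selplg, were lower. The median was 0.14, against -0.002 over all genes, of which 49.1% were higher. None of the 9 was called by limma, against 0.321% of all genes. An unadjusted p under 0.05 was found for 4 of the 9 (Gpr34, P2ry13, Aif1 and Cx3cr1, all higher in CD mice) with limma and for 3 with limma voom, against 9.64% of all genes. Gpr34 had a log2 fold change of 0.37 (95% interval 0.18 to 0.55, 1.29-fold, adjusted p = 0.161, limma). The 6 CD mice were above the 6 WT mice for Gpr34 alone among the 9 markers, and for 0.573% of all genes. P2ry13 followed with 0.33 (0.04 to 0.62), Aif1 with 0.25 (0.02 to 0.48) and Cx3cr1 with 0.14 (0.01 to 0.28). Their adjusted p values were 0.441, 0.485 and 0.497 (limma). The 4 markers with an unadjusted p under 0.05 became 1 without VEH-CD 1 and 2 without VEH-WT 2, VERCUR-WT 3 or VERCUR-CD 3. P2ry13 was 0.20 higher without VEH-WT 2. When only genes with a coefficient of variation under 20% in every group were tested, Gpr34 was called (adjusted p = 0.0499, limma), and P2ry13 did not pass that filter.

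The treatment comparisons asked whether VERCUR altered the markers in either genotype. They share VEH-CD, VEH-WT and VERCUR mice with the genotype comparisons, so the values are given side by side only. In CD mice, 8 of the 9 markers were higher after VERCUR and Selplg was lower, with a median of 0.09, against 50.8% of all genes higher. None was called by limma, against 0% of all genes, and none of the 9 had an unadjusted p under 0.05 with limma or limma voom (1 did without VERCUR-CD 1), against 3.54% of all genes. In WT mice, all 9 were higher, with a median of 0.13, against 49.5% of all genes higher. None was called by limma, against 0% of all genes, and 1 of the 9, P2ry13, had an unadjusted p under 0.05 with limma and none with limma voom, against 5.22% of all genes. P2ry13 was 0.42 higher (95% interval 0.01 to 0.82, adjusted p = 0.944, limma) and 0.15 higher without VEH-WT 2. Without VEH-WT 2, VERCUR-WT 2, VERCUR-CD 3 or any VEH-CD mouse none of the 9 had such a p, and without VERCUR-WT 3 there were 2.

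Gpr34 was 0.09 higher (95% interval -0.18 to 0.35) in WT mice and 0.16 higher (-0.11 to 0.42) in CD mice after VERCUR. Both intervals included 0 and were wide. Aif1 was 0.22 higher (-0.11 to 0.56) in WT and 0.06 higher (-0.27 to 0.39) in CD mice after VERCUR. Over both genotypes the 9 values ran from 0.01 for Tmem119 to 0.24 for P2ry13, with a median of 0.12, all above 0, as 50.1% of all genes were. None was called by limma, against 0% of all genes, and 1 of the 9, Cx3cr1 at 0.14 (0.00 to 0.28), had an unadjusted p under 0.05 with limma and none with limma voom, against 2.96% of all genes. Leaving out 1 mouse moved that count to between 0 and 3, with 0 in 7 of the 12 cases and the highest without VEH-WT 3. Within some lists of markers of other cells, all values by treatment also lay on the same side of 0, with none called by limma. Over both genotypes, all 5 striatal markers were lower after VERCUR (median log2 fold change -0.94), as were all 5 oligodendrocyte markers (-0.30), while all 5 astrocyte markers (0.13) and all 5 endothelial markers (0.10) were higher. With the striatal marker level as a covariate, all 9 differences by treatment were above 0, that of P2ry12 was 0.09 in place of 0.19, and that of Aif1 was 0.25 in place of 0.14. Beyond this, the part of these cells in the treatment values was not tested.

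The interaction, which asks whether the effect of VERCUR differed between CD and WT mice, was called for none of the 9 by limma, against 0% of all genes. No marker had an unadjusted p under 0.05 with limma or limma voom, against 6.05% of all genes. The values ran from -0.36 for P2ry13 (95% interval -0.94 to 0.22) to 0.07 for Csf1r (-0.16 to 0.30), and were above 0 for 2 of the 9, against 51.5% of all genes. For Aif1 the interaction was -0.16 (-0.63 to 0.31).

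GC content of the transcript varied among the markers. It was 36.8% in Gpr34, 39.5% in P2ry12 and 44.7% in P2ry13, below the median of 50.1% over all genes, and 54.2% in Csf1r, 54.4% in Selplg and 59.5% in Tmem119, above it. Across the 9 markers, GC content and the deviation of a mouse from the mean of each marker correlated at -0.91 in VERCUR-CD 2, -0.86 in VERCUR-CD 3 and -0.77 in VEH-CD 2, and at 0.73 in VEH-WT 2 and 0.71 in VERCUR-WT 2. In the other 7 mice it lay between -0.30 and 0.44. Across all genes, the correlation was -0.25 in VERCUR-CD 2, but -0.05 in VERCUR-CD 3, -0.06 in VEH-CD 2, 0.03 in VEH-WT 2 and 0.10 in VERCUR-WT 2. With a GC correction, Gpr34 had a difference between genotypes of 0.35 over both treatments (adjusted p = 0.142, limma). The correction gave 0.33 in place of 0.40 in VERCUR-treated mice (adjusted p = 0.999, limma). In VEH-treated mice it gave 0.37 in place of 0.33 (adjusted p = 0.213, limma). With the striatal marker level as a covariate, the Gpr34 difference over both treatments was 0.36 (adjusted p = 0.156, limma). Beyond these values, the part of GC content and of dissection in the differences was not tested.

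**Figure D3:**
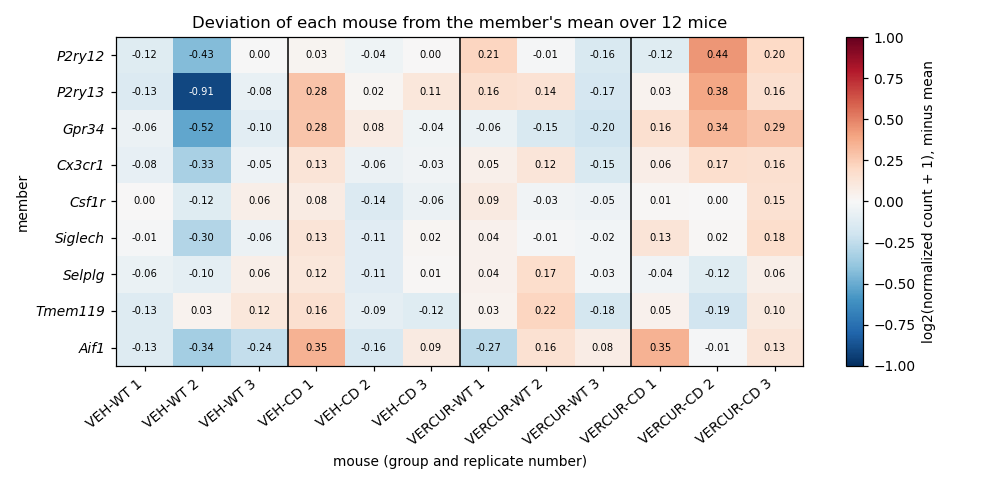
Deviation of each mouse (columns, by group) from the mean of each marker over 12 mice (rows), in log2(normalized count + 1), with red above and blue below the mean. The VEH-WT 2 column is the lowest, at -0.91 for P2ry13 and -0.52 for Gpr34, and in the VERCUR-CD 2 column P2ry12, P2ry13 and Gpr34 are high (0.44, 0.38 and 0.34) while Tmem119 is low (-0.19).

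Across the 12 mice, most markers varied together. The 36 pairs of markers had Pearson correlations from -0.09 to 0.92, with a median of 0.54, and 34 were above 0. With the group means removed the median was 0.56, so the correlation is also present within groups. P2ry13 and Cx3cr1 were closest (r = 0.92), and the neighbours P2ry12 and P2ry13 had r = 0.85. Tmem119 and Selplg, the other neighbours, had r = 0.79, but Tmem119 had -0.09 with P2ry12 and -0.02 with Gpr34. Each point is 1 mouse, and the values of a mouse share its library, its dissection and the GC content noted above. The 10 genes most like the mean of the 9 standardized markers over the 12 mice included Tlr2 (r = 0.94), Gm6166 (0.93), Fjx1 (0.92), Cyp2d22 (0.92), A730020M07Rik (0.90), Slc37a2 (0.90), Unc93b1 (0.89), Lpcat2 (0.88) and Acss1 (0.88).

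Endothelial markers varied with the 9 microglia markers across the 12 mice. The correlation of the 5 endothelial markers with the mean of the 9 ranged from 0.31 for Ly6c1 to 0.82 for Slco1a4, an organic anion transporter of the blood-brain barrier. Their sum was 6624 to 8401 normalized counts in VEH-WT, 6888 to 8984 in VEH-CD, 7110 to 9361 in VERCUR-WT and 8043 to 8512 in VERCUR-CD, and VEH-WT 2 was the lowest mouse here too. For the 5 neuronal markers the correlation ranged from -0.38 (Snap25) to 0.22 (Rbfox3), for the 5 oligodendrocyte markers from -0.23 (Mbp) to -0.04 (Mog), and for the 5 astrocyte markers from 0.05 (Gfap) to 0.57 (Gja1). The part of these cell types in the marker differences was not tested.

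Ligands and regulators of the markers were read from a list of 13 genes, of which 12 were in the table. Selp, whose product binds the Selplg protein, was not analysed here. None of the 12 was called in any of the 7 comparisons (limma), in which at most 0.321% of all genes were called. Cx3cl1, the fractalkine that binds the Cx3cr1 receptor, was 45553 to 51608 normalized counts in the 6 WT mice and 41765 to 47970 in the 6 CD mice, which overlap. It was 0.12 lower in CD mice over both treatments (95% interval -0.21 to -0.03, adjusted p = 0.381, limma). Il34, a ligand of Csf1r made by neurons, was -0.12 (-0.23 to -0.01, adjusted p = 0.446, limma), and Csf1, the other ligand, was -0.02 (-0.19 to 0.15). Spi1 was 0.13 (-0.08 to 0.34). Spi1 had the highest value of the list in VEH-treated mice, at 0.23 (-0.07 to 0.53).

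A list of 22 other microglia genes was measured in full. Over both treatments, 15 were higher and 7 lower in CD mice, with a median log2 fold change of 0.05, and 49.1% of all genes were higher. Of the 22, 1 was called, against 0.321% of all genes. Olfml3, a secreted glycoprotein, fell in CD mice, with a log2 fold change of -0.42 (95% interval -0.59 to -0.26, adjusted p = 0.0352, limma). Its normalized counts were 720 to 1037 in the 6 WT mice and 634 to 756 in the 6 CD mice, with VEH-WT 2 (720) below VERCUR-CD 1 (756). Olfml3 was -0.36 (-0.60 to -0.13) in VEH-treated and -0.48 (-0.71 to -0.24) in VERCUR-treated mice, and the genotypes did not overlap within either treatment. Of the 17111 genes tested, 1943 had all CD mice below all WT mice in VEH-treated mice, and 656 did in VERCUR-treated mice. The call was also made without VEH-WT 2, VERCUR-WT 3 or VERCUR-CD 1, and was lost without any other single mouse (adjusted p from 0.0549 to 0.137, limma). The highest value was that of Crybb1, a crystallin, at 0.55 (0.30 to 0.80, adjusted p = 0.0845, limma), with 154 to 209 normalized counts in WT and 201 to 311 in CD mice.

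Genes of activated microglia were a list of 16, of which 9 were in the table and 8 were tested. Cst7, Itgax, Ccl3, Ccl4, Il1b, Tnf and Ch25h were not analysed here. None of the 8 was called in any comparison (limma), where at most 0.321% of all genes were called. Over both treatments, 4 were higher and 4 lower in CD mice, from -0.37 for Cd74 (95% interval -0.65 to -0.09, adjusted p = 0.359, limma), the chaperone of MHC class II, to 0.41 for Gpnmb (0.07 to 0.76, adjusted p = 0.407, limma), a glycoprotein of phagocytes. An unadjusted p under 0.05 was found for 4 of the 8 over both treatments with limma, against 9.64% of all genes. Of these 4, 3 were higher and 1 was lower in CD mice. The lowest adjusted p of the list in that comparison was 0.267 (limma). In VEH-treated mice the values of the 8 ran from -0.19 for Cd74 to 0.77 for Clec7a, the latter from 3.46 to 13.2 normalized counts per mouse.

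**Figure D4:**
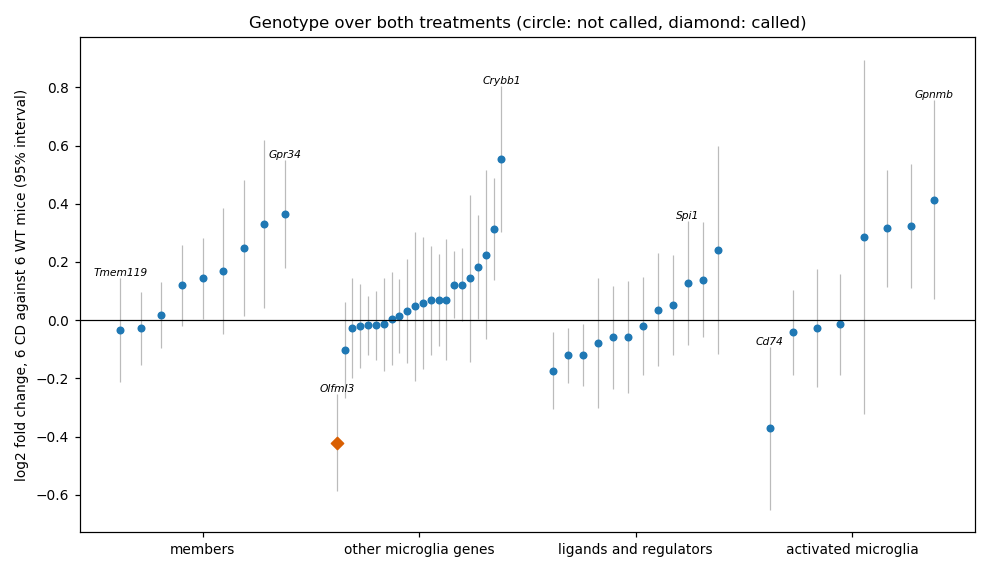
Log2 fold change of 6 CD against 6 WT mice over both treatments (vertical axis, bars for 95% intervals) for the 9 markers (members) and the genes tested in 3 related lists (horizontal axis, sorted within each list). The diamond is Olfml3 (-0.42), the gene called, and circles are genes not called. Gpr34 (0.37) is the highest of the 9 markers.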

How the data were processed

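The authors sequenced RNA from the cortex of 12 mice with paired-end reads, and the mice were placed in 4 groups of 3 from the sample labels. Per the study's methods and the submitters' processing notes, the authors checked reads with FastQC, aligned them to GRCm38 with STAR 2.5.3a and counted reads per gene. The counting program, annotation release and scaling are not given in the sources used here. The authors deposited 1 normalized count per gene and mouse, and other columns of per-sample values numbered 0. In every mouse, a single step divided 100% of the low values into whole numbers (tolerance 0.05), which gave the read totals. Such precision covers counting error only.

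Linear models in limma 3.58.1 (R 4.3.3) used log2(normalized count + 1) for the 17111 genes with a mean of at least 10. This scale understates changes of low genes. The fit had 4 group means, an intensity trend and two-sided p values adjusted over these genes after Benjamini and Hochberg. A call required the adjusted p to be under 0.05 with a change of more than 25% up or down, or for the interaction the adjusted p alone. With 3 mice a group, each p value sets a difference against the spread between mice within groups, pooled over the 4 groups and moderated by the intensity trend. The test was tested on simulated data. The replicate numbers of the labels were not taken as pairs, since only 4 of 18 same-numbered pairs deviated together with a correlation over 0.1.

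The markers, the related gene lists and the tests were chosen with earlier results of these data known. All 9 markers were tested in each comparison. The text gives a value or an interval of all 9 for VEH-CD against VEH-WT, and of only some markers for the other comparisons. From the related lists, the genes named are those called, otherwise the highest and lowest, the ligands Cx3cl1, Il34 and Csf1 and the factor Spi1, and by likeness the 10 genes of highest Pearson correlation. Some results that this rule names are not reported here. Single markers of other cell types were named after their values were seen. Alternatives were pseudocounts of 0.1 and 5, no filter, a mean of at least 50, a coefficient of variation under 20% in every group, quantile normalization, median centring, no intensity trend, a replicate block, only the groups compared, and leaving out each mouse. limma voom on recovered reads, a GC correction and a striatal covariate were added after seeing the data. The authors' tables of relative expression for selected genes were not used.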

Additional observations from a re-analysis of the deposited data

How the results depend on the processing

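No alternative called a marker except 1. When only genes with a coefficient of variation under 20% in every group were tested, the count for genotype over both treatments went from 0 to 1, with Gpr34 called. That setting tests fewer genes, and P2ry13 did not pass it. With the replicate block, 0 markers were called in each of the 7 comparisons, and Olfml3 was no longer called for genotype over both treatments (adjusted p = 0.0744, limma). Olfml3 was also not called without the intensity trend (adjusted p = 0.0874, limma). With quantile normalization its adjusted p stayed under 0.05 (adjusted p = 0.0432, limma), but its log2 fold change of -0.41 fell just short of the 25% change required. Why the adjusted p rose with the replicate block and without the intensity trend was not tested. The replicate numbers gave correlations between same-numbered mice from -0.35 to 0.27. Count models on the recovered reads, although planned, were not run, and limma voom was run in their place.

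Of 785 values of single markers under alternatives other than leaving out a mouse, 774 kept their direction and their side of the threshold. Those that reversed were small. With quantile normalization they were 0.0114 for Tmem119 and 0.0086 for Csf1r in VEH-CD against VEH-WT, -0.0102 for Tmem119 in VERCUR-CD against VEH-CD and 0.0028 for Selplg in genotype over both treatments. With the GC correction they were 0.0125 for Tmem119 in VERCUR-CD against VERCUR-WT, -0.0043 for P2ry13 in VERCUR-CD against VEH-CD, and -0.0371 for Gpr34 and 0.0556 for Tmem119 in the interaction. With the striatal covariate they were -0.0030 for P2ry13 and -0.0071 for Tmem119 in VERCUR-CD against VEH-CD.

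Leaving out each mouse in turn called no marker (lowest adjusted p = 0.112, limma) and reversed 52 of 756 values. In VEH-CD against VEH-WT, the values ran from -0.114 to 0.0296 for Tmem119, from -0.0781 to 0.0334 for Csf1r and from -0.0167 to 0.0982 for Selplg. In VERCUR-CD against VERCUR-WT, Tmem119 ran from -0.141 to 0.0553. In VERCUR-CD against VEH-CD, P2ry13 ran from -0.0404 to 0.135, Tmem119 from -0.0564 to 0.091, Selplg from -0.0986 to 0.0163 and Aif1 from -0.0639 to 0.191. In VERCUR-WT against VEH-WT, Tmem119 ran from -0.0788 to 0.118, Csf1r from -0.0304 to 0.061 and Gpr34 from -0.0578 to 0.173. For genotype over both treatments, Tmem119 ran from -0.083 to 0.0152, Csf1r from -0.0128 to 0.043 and Selplg from -0.0558 to 0.0016. For treatment over both genotypes, Tmem119 ran from -0.0387 to 0.0595 and Selplg from -0.0021 to 0.0554. For the interaction, P2ry12 ran from -0.16 to 0.124, Tmem119 from -0.116 to 0.0802, Cx3cr1 from -0.118 to 0.0488, Siglech from -0.0925 to 0.0553 and Gpr34 from -0.0174 to 0.214. Olfml3, which is not among the 9 markers and not counted above, ran from -0.224 to 0.0024 in the interaction.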
